A study of Mus musculus with 32 samples.

Results

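The regions described here were listed as peaks of tagged TAF6L in mouse embryonic stem (ES) cells. They lay outside every listed wild-type peak of H3K4me3 and of Oct4. They were obtained by joining the overlapping peaks of both TAF6L-FB cell lines (lines 15 and 9) on chromosomes 1 to 19, which gave 1630 regions. Of these, 18 lay in a block at the start of chromosome 9 and 9 overlapped a peak of the BirA control, and both sets were left out. Of the 1603 regions that remained, 497 (31.0%) overlapped neither mark by as much as 1 bp. The other 1106 comprised 854 regions with H3K4me3 only, 160 with Oct4 only and 92 with both. The TAF6L-FB, BirA, wild-type H3K4me3 and wild-type Oct4 lists chose the 497 regions, so the values of those lists are given as a description.

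TAF6L is a histone-fold relative of TAF6 and a subunit of SAGA, a coactivator complex that carries the histone acetyltransferase GCN5 and acts with sequence-specific factors at promoters and enhancers. H3K4me3 marks the start sites of active and poised genes, and Oct4, a POU-family factor of pluripotent cells, binds many ES-cell enhancers. RNA polymerase II is phosphorylated on serine 5 of its C-terminal repeats as it leaves the start site and on serine 2 as it elongates, and H3K9ac is a product of SAGA-type acetyltransferases at active promoters. A TAF6L region outside both classes therefore has neither of the landmarks by which most promoters and Oct4 enhancers would be recognised in these lists.

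The series holds 32 ChIP-seq samples of the J1 ES line. In 21 of them, antibodies precipitated Myc, Oct4, H3K9ac, H3K4me3, total RNA polymerase II (RNAP), its serine 5 form (RNAP-ser5) or its serine 2 form (RNAP-ser2) from Taf5l-KO, Taf6l-KO and Wild-type cells, with 1 library per antibody and genotype. In 5 bioChIP samples, streptavidin beads precipitated Flag-Biotin (FB) tagged TAF6L (lines 15 and 9), tagged TAF5L (lines A5 and A6) or chromatin of the BirA control, all from cells whose genotype is labelled WT. The other 6 samples are inputs. The labels do not say how the knockouts were made, from how many clones they came, or how far the tagged lines are independent of each other.

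The TAF6L-FB libraries held 21276172 unique tags in line 15 and 18292747 in line 9, against 25129895 in BirA. The 9 polymerase libraries held between 1702363 (RNAP-ser5 in Taf6l-KO) and 15865460 (RNAP in Taf5l-KO) unique tags. Fragments were taken as 300 bp long in calling TAF6L-FB and as 49 bp long in calling BirA, which makes the control list less comparable. A peak is an entry in a deposited list, and its fold enrichment, pileup (height in tags) and −log10 q are the values of the authors' peak caller. Percentages carry exact (Clopper-Pearson) 95% intervals, which cover counting error only. Since genotypes had 1 library each and neighbouring regions are not replicates, no test was made and no p-value is given. Positions are in build mm9. Gene annotation and sequence of that build were not used here, so the regions are named by position.

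Most of the 497 regions were found in a single line. Line 15 alone listed 253, line 9 alone listed 215, and 29 (5.84%, 3.94 to 8.27) were listed in both. Of the 282 regions listed in line 15, 10.3% (7.0 to 14.4) were also listed in line 9, and of the 244 listed in line 9, 11.9% (8.11 to 16.6) were also listed in line 15. Among the other TAF6L regions these shares were 11.5% (9.46 to 13.9) of 850 and 27.7% (23.1 to 32.7) of 354. Line 9 listed 244 of the 497 regions, against 354 of the other 1106. By class, it listed 216 of the 854 regions with H3K4me3 only, 90 of the 160 with Oct4 only and 48 of the 92 with both. The lower share of line 9 among the other regions thus came from the H3K4me3-only class and did not set the 497 regions apart. In the 160 regions with Oct4 only, 18.8% (13.0 to 25.7) were shared by both lines, and in the 854 with H3K4me3 only, 5.62% (4.17 to 7.38).

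The strength of the regions was close to that of TAF6L regions at promoter-type chromatin. The median fold enrichment over the 497 regions was 4.15 (1.33 to 6.34) in line 15 and 4.32 (1.39 to 8.13) in line 9. Regions with H3K4me3 only had medians of 4.26 and 4.32 in the same lines, and regions with Oct4 only had 4.24 and 5.04. The lines had different depths and inputs, so values are compared within a line. The median width of the regions was 341 bp (300 to 6005), against 352 bp at H3K4me3-only regions and 379.5 bp at Oct4-only regions.

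A minority of the regions stood on a high local background, and all of these were weak by fold enrichment. A peak's pileup divided by its fold enrichment approximates the local background in tags that the peak caller expected there, and its median was 4.76 in line 15 and 3.91 in line 9. Fold enrichment is its denominator, so it tends to be higher where fold enrichment is low. It reached 10 or more in 46 of the 497 regions (9.26%, 6.86 to 12.2), against 35 of the other 1106 (3.16%, 2.21 to 4.37). These high-background regions combined pileups of up to 563 tags with low fold enrichment. All of those listed in line 15 (15 of 71) and in line 9 (40 of 61) fell in the weakest of 4 equal strength groups of that line by fold enrichment, and the other strength groups held 0. They made up 9 of the 29 regions shared by both lines (31.0%, 15.3 to 50.8), 6 of the 253 of line 15 alone and 31 of the 215 of line 9 alone. Among the other TAF6L regions, such places made up 16 of 98 shared ones (16.3%, 9.63 to 25.2), an interval that overlaps. There they were 10 of 752 of line 15 alone and 9 of 256 of line 9 alone. The widest of the 46 was chr17:39979854-39985858, 6005 bp long, with fold enrichments of 2.53 in line 15 and 2.73 in line 9. It had the highest −log10 q of any region in either line (41.7 and 55.0). At chr2:98506360-98507598 the pileup was 562 and 563 tags and the fold enrichment only 1.40 and 1.98. At chr15:74916862-74917516 the pileup was 359 and 390 tags and the fold enrichment 1.33 and 1.84. The threshold of 10 was chosen after these values were seen.

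**Figure D1:**
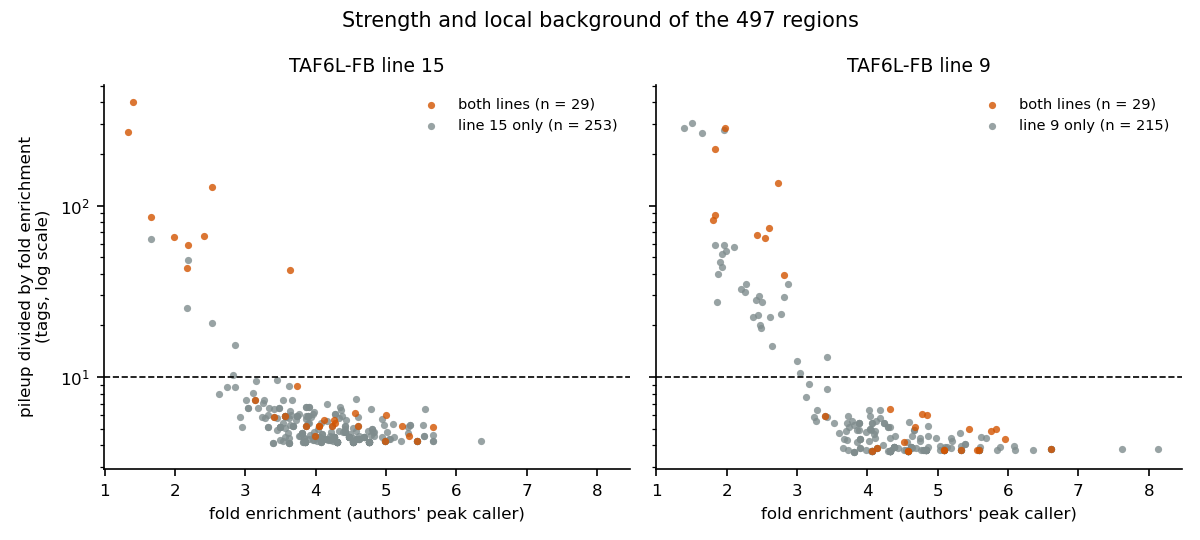
Each point is 1 of the 497 regions as listed in TAF6L-FB line 15 (left) or line 9 (right), with fold enrichment on the x axis and pileup divided by fold enrichment (tags, log scale) on the y axis. The dashed line is at 10; regions above it have low fold enrichment, and 9 of the 29 regions shared by both lines (orange) are among them.

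Some of these places lay side by side. On chr11:3035108-3099551, 8 regions within 64.4 kb were all of the high-background kind, with fold enrichments from 1.66 to 2.18, 2 listed in line 15 and 6 in line 9. On chr8:19863055-19990655, 5 regions were all of that kind and all listed in line 9, with fold enrichments from 2.21 to 2.81. With gaps of up to 100000 bp allowed, 11 groups of 3 or more regions held 41 of the 497, 31 groups held 2 each, and 394 regions stood alone. The 9 groups outside those 2 clusters held no high-background region, and the tightest of them had 3 regions within 3.65 kb, on chr15:103350424-103354073. Chromosome 1 carried 9.66% of the 497 regions, against 16.0% of the other TAF6L regions, and chromosome 8 carried 10.9% against 9.40%.

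The strongest regions found in both lines, ranked by the mean of their fold enrichments in the 2 lines, were not of the high-background kind. The first was chr15:96075180-96075607, with fold enrichments of 5.33 in line 15 and 6.61 in line 9 and a gap of 25992 bp to the nearest wild-type H3K4me3 peak. It overlapped RNAP peaks in Taf5l-KO, Taf6l-KO and Wild-type cells, with fold enrichments of 4.62, 4.26 and 5.14 in those lists, a wild-type RNAP-ser2 peak (4.11) and an Oct4 peak in Taf5l-KO cells (5.56). Next came chr6:142460004-142460567 (5.44 in line 15 and 5.34 in line 9), which overlapped an RNAP peak in Taf5l-KO cells and no other list. At chr1:4792602-4793006 (5.66 and 4.85), the RNAP lists had 6.34 in Taf5l-KO, 7.46 in Taf6l-KO and 3.73 in Wild-type cells. The region chr4:55488220-55488716 (4.60 and 5.59) also overlapped RNAP in all 3 genotypes. The 4 regions that followed, chr12:102234503-102234947, chr18:35202977-35203341, chr8:91515693-91516178 and chr5:30916528-30917122, overlapped no peak of any other list. The last of the 10 strongest were chr1:121295216-121295674 (3.73 and 5.83), with a TAF5L-FB peak only, and chr18:35917129-35917606 (4.05 and 5.44), with TAF5L-FB and with RNAP in Taf5l-KO cells. In the 20 shared regions that were not of the high-background kind, the summits of the lines lay a median of 95.5 bp apart (6 to 393).

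Among regions of line 9 alone, the strongest was chr17:4626130-4626725, with a fold enrichment of 8.13. It lay 277498 bp from the nearest wild-type H3K4me3 peak and 863782 bp from the nearest Oct4 peak, and no other list had a peak there. The next of line 9 alone was chr5:65255938-65256504 (7.62), which overlapped RNAP peaks in Taf5l-KO (4.96) and Wild-type cells (3.48), and the third, chr6:4969164-4969562 (6.61), overlapped no list. In line 15 alone, chr5:18194345-18194849 had the highest value (6.34), followed by chr3:87942164-87942497 (5.67) and chr4:133456353-133456719 (5.66).

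Absence of a listed mark did not always mean distance from it. The gap between a region and the nearest wild-type H3K4me3 peak had a median of 7723 bp and ran from 2 to 390633 bp. It was under 1000 bp for 96 regions (19.3%), between 1000 and 10000 bp for 188 and above 10000 bp for 213. The gap to the nearest wild-type Oct4 peak was far larger, with a median of 185668 bp (16 to 4009973), and was under 1000 bp for 17 regions. The wild-type Oct4 list is much shorter, with 2502 peaks on chromosomes 1 to 19, against 31027 of H3K4me3. A shorter list leaves longer gaps from any place, and the part of list length was not tested. The nearest regions inside the rule were chr17:27461980-27462346 (gap 2 bp, fold enrichment 3.45 in line 15), chr15:99868783-99869115 (7 bp, 4.58 in line 15) and chr11:97523630-97524029 (7 bp, 4.24 in line 15 and 4.57 in line 9). Those left out by the smallest overlap were chr15:84496190-84496530 and chr12:87845230-87845529, each by 1 bp of H3K4me3, and chr8:87437858-87438164, by 9 bp. Their fold enrichments were 4.98 in line 15, 4.62 in line 9 and 3.4 in line 15, within the range of the regions kept.

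**Figure D2:**
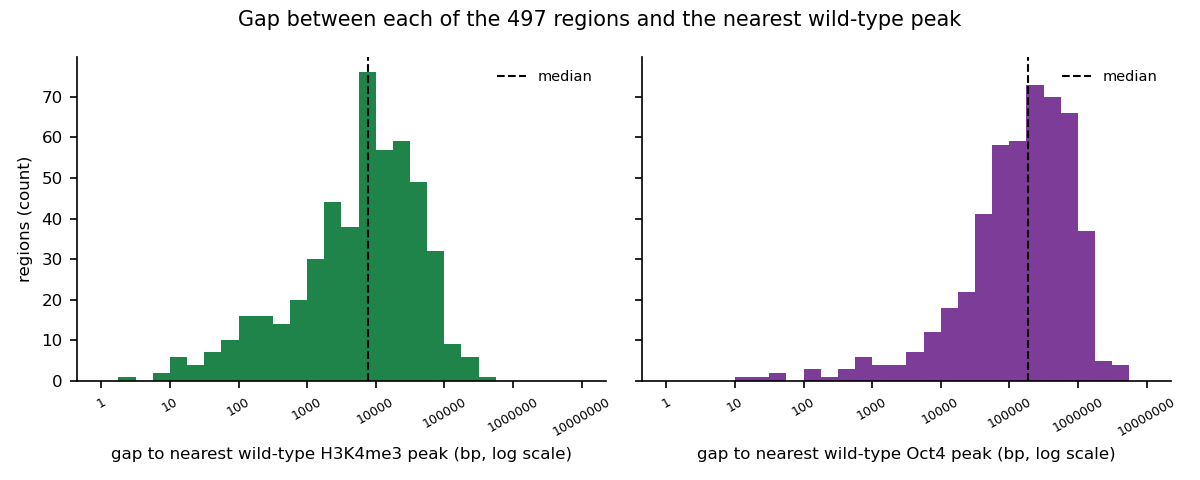
Histograms of the gap in bp (log scale) between each of the 497 regions and the nearest wild-type H3K4me3 peak (left) or wild-type Oct4 peak (right); bars count regions and the dashed lines mark the medians, 7723 and 185668 bp. Gaps to H3K4me3 spread from a few bp to 390633 bp, whereas few gaps to Oct4 were short. The lists hold 31027 H3K4me3 and 2502 Oct4 peaks on chromosomes 1 to 19.

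RNA polymerase II was the most common other feature of the regions, and it was less common than at TAF6L regions as a whole. RNAP peaks overlapped 135 of the 497 regions in Taf5l-KO cells (27.2%, 23.3 to 31.3), 139 in Taf6l-KO cells (28.0%, 24.1 to 32.1) and 112 in Wild-type cells (22.5%, 18.9 to 26.5). Over all 1603 TAF6L regions the shares were 62.1%, 62.8% and 54.3% in the same order of genotypes. Among the 854 regions with H3K4me3 only they were 81.0%, 82.6% and 72.6%, and among the 160 with Oct4 only 53.8%, 51.2% and 40.6%. In Wild-type cells the interval of the 497 regions (18.9 to 26.5) lay below those of the regions with Oct4 only (32.9 to 48.7) and with H3K4me3 only (69.5 to 75.6). Wild-type RNAP peaks covered 15.7% of the bases of the 497 regions, against 1.05% of the effective genome. Of the 24 BirA regions, 0 overlapped an RNAP peak in Taf5l-KO or Wild-type cells, and 2 did in Taf6l-KO cells. The count of 0 allows a share of up to 12.5% (3 counts of 24, and the exact interval reaches 14.2%). The BirA regions had a median width of 67.5 bp, against 341 bp for the 497 regions, so they meet an overlap of 1 bp less easily.

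The phosphorylated forms were rarer. RNAP-ser5 peaks overlapped 48 regions in Taf5l-KO cells (9.66%, 7.21 to 12.6), 19 in Taf6l-KO cells (3.82%, 2.32 to 5.91) and 51 in Wild-type cells (10.3%, 7.74 to 13.3), against 31.1%, 16.7% and 23.0% of all TAF6L regions. RNAP-ser2 peaks overlapped 55 regions in Taf5l-KO (11.1%, 8.45 to 14.2), 75 in Taf6l-KO (15.1%, 12.1 to 18.5) and 70 in Wild-type cells (14.1%, 11.1 to 17.5), against 35.5%, 42.5% and 33.9% of all TAF6L regions. At the regions with Oct4 only, RNAP-ser5 in Wild-type cells stood at 8.75% (4.87 to 14.2), so that its interval overlapped that of the 497 regions. Of the 19 regions with RNAP-ser5 in Taf6l-KO cells, 10 were of the high-background kind, compared with 12 of 51 in Wild-type cells. Without those 46 places the RNAP-ser5 shares were 9.31% in Taf5l-KO, 2.00% in Taf6l-KO and 8.65% in Wild-type cells. For RNAP-ser2, 6 of the 55 regions in Taf5l-KO, 17 of the 75 in Taf6l-KO and 11 of the 70 in Wild-type cells were such places. Without them the RNAP-ser2 shares were 10.9%, 12.9% and 13.1%, so Taf6l-KO no longer stood above Wild-type cells. The RNAP-ser5 library of Taf6l-KO cells was also the shallowest, with 1702363 unique tags, against 3871824 in Wild-type cells. The part of depth in these shares was not tested.

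In Wild-type cells, 140 regions (28.2%, 24.3 to 32.3) overlapped at least 1 form of the polymerase, against 58.8% of all TAF6L regions. When polymerase peaks below a −log10 q of 5 were left out, the share was 6.04%. That threshold shortened the wild-type lists themselves, from 28007 to 7511 peaks for RNAP, 43394 to 718 for RNAP-ser5 and 41488 to 1789 for RNAP-ser2. The share of all TAF6L regions was not computed at it, so the fall cannot be tied to the 497 regions. Without the threshold, all 3 forms were listed at 27 regions, RNAP alone at 55, RNAP with RNAP-ser2 at 18 and RNAP with RNAP-ser5 at 12. RNAP-ser2 without RNAP was listed at 25 regions, 9 of them with RNAP-ser5, and RNAP-ser5 alone at 3. Total polymerase without either phosphorylated form was thus the largest single pattern. The strongest regions with wild-type RNAP included chr8:87996968-87997438 (TAF6L-FB 6.08 in line 9), where the wild-type RNAP peak (5.26) was the only other entry and H3K4me3 lay 234 bp away. At chr7:29754663-29754962 (5.66 in line 15), all 3 forms were listed in Wild-type cells, at 3.86 for RNAP, 3.72 for RNAP-ser5 and 3.95 for RNAP-ser2. At chr7:52814288-52814651 (5.59 in line 9), wild-type RNAP had 5.16 and RNAP-ser5 4.86. Counting any form in any genotype, 237 of the 497 regions (47.7%, 43.2 to 52.2) overlapped a polymerase peak, against 73.9% of all TAF6L regions.

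**Figure D3:**
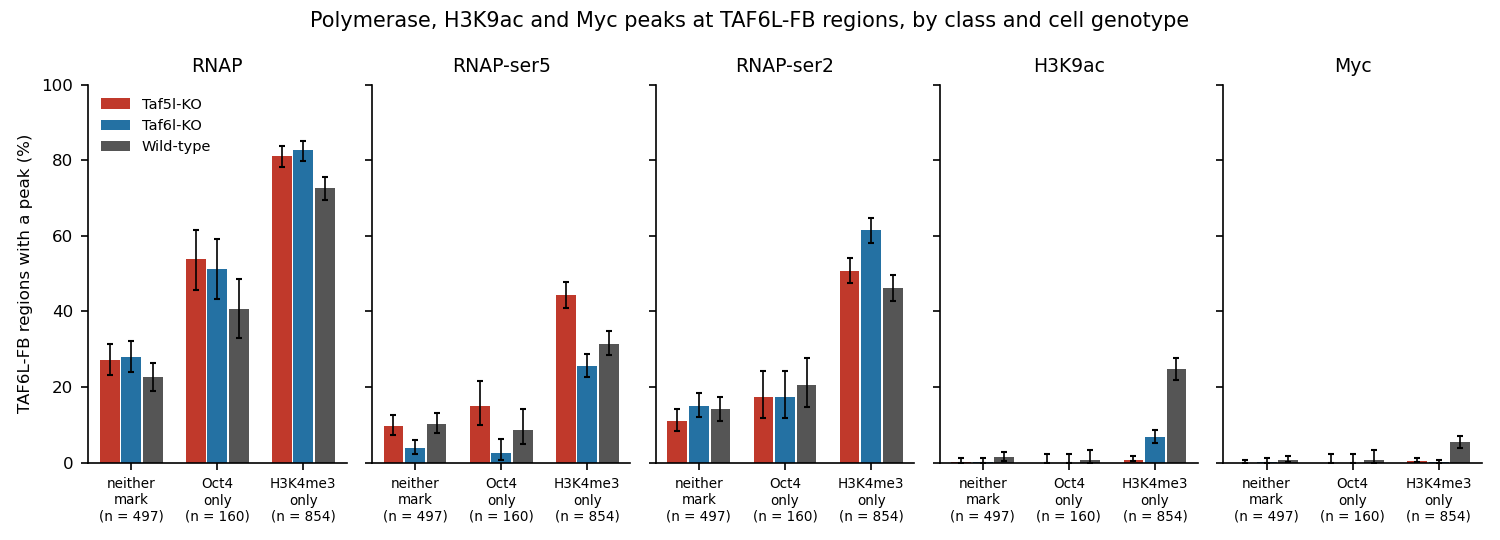
Percentage of TAF6L-FB regions that overlapped a peak of RNAP, RNAP-ser5, RNAP-ser2, H3K9ac or Myc in Taf5l-KO (red), Taf6l-KO (blue) and Wild-type (grey) cells, for the 497 regions with neither mark, the 160 with Oct4 only and the 854 with H3K4me3 only. Bars are shares of regions from 1 library per genotype with exact 95% intervals; the 497 regions have the lowest RNAP bars, at 27.2%, 28.0% and 22.5%.

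Which regions overlapped the polymerase differed between the genotype lists. RNAP was listed in all 3 genotypes at 68 regions (13.7%), against 48.5% of all 1603 TAF6L regions. It was listed in both knockouts but not in Wild-type cells at 29 (5.84%, against 8.05% of all). It was listed in Taf5l-KO cells only at 28 (5.63%, against 3.81%), in Taf6l-KO cells only at 31 (6.24%, against 4.43%) and in Wild-type cells only at 23 (4.63%, against 2.31%). The remaining patterns were Taf5l-KO with Wild-type cells at 10 regions (2.01%, against 1.75%), Taf6l-KO with Wild-type cells at 11 (2.21%, against 1.81%) and no genotype at 297. RNAP-ser5 was listed in all 3 genotypes at 8 regions (1.61%, against 10.2%) and in Wild-type cells only at 24 (4.83%, against 5.18%). RNAP-ser2 was listed in all 3 at 21 (4.23%, against 22.1%) and in Wild-type cells only at 30 (6.04%, against 5.30%). For RNAP and RNAP-ser2 the regions thus fell short of all TAF6L regions mainly in the pattern of all 3 genotypes. Their shares for single-genotype patterns of these 2 targets were within a few percentage points of the background. For RNAP-ser5 they also fell short in Taf5l-KO cells only (4.23%, against 9.86%). The same held for RNAP-ser5 in Taf5l-KO with Wild-type cells (2.82%, against 6.86%) and in both knockouts (1.01%, against 4.18%). RNAP-ser2 likewise fell short in both knockouts (3.02%, against 7.55%). To a lesser extent it did so in Taf6l-KO with Wild-type cells (2.21%, against 4.55%) and in Taf6l-KO cells only (5.63%, against 8.36%). Of the 23 regions with RNAP in Wild-type cells only, 17 were listed in line 9 and 7 in line 15. The RNAP libraries held 15865460 unique tags in Taf5l-KO, 7236644 in Taf6l-KO and 5174150 in Wild-type cells. The part of depth in these patterns was not tested.

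**Figure D4:**
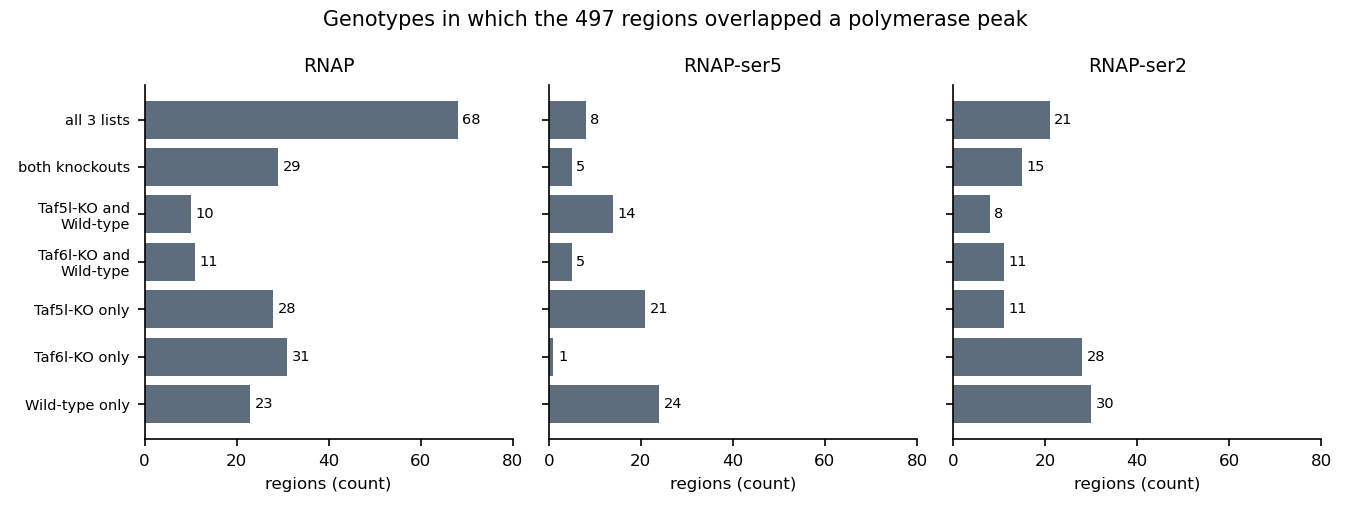
Number of the 497 regions (x axis) whose RNAP, RNAP-ser5 or RNAP-ser2 overlap was found in each combination of the Taf5l-KO, Taf6l-KO and Wild-type lists; regions with no peak in any genotype are not drawn. For RNAP the longest bar is the 68 regions listed in all 3 genotypes, and for RNAP-ser5 and RNAP-ser2 it is Wild-type only, at 24 and 30.

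Seen from the polymerase lists, 110 wild-type RNAP peaks touched the 497 regions. Of these, 78 (70.9%, 61.5 to 79.2) met an RNAP peak of Taf5l-KO cells and 83 (75.5%, 66.3 to 83.2) met one of Taf6l-KO cells. The shares of both knockouts rest on these same 110 wild-type peaks and are not independent of each other. Over the whole wild-type RNAP list the shares were 52.5% in Taf5l-KO and 60.1% in Taf6l-KO. They were 97.1% and 96.9% of the 612 peaks at TAF6L regions with H3K4me3 only, and 93.8% and 89.2% of the 65 at regions with Oct4 only. Within the wild-type list the peaks at the 497 regions were of ordinary strength, with a median fold enrichment of 4.26, against 4.34 over the whole list and 5.55 at H3K4me3-only regions. They were also narrower than at H3K4me3-only regions, with a median of 531 bp against 786.5 bp, and wider than the whole list, with 477 bp. Some of these peaks reached into H3K4me3 outside the region: 16 of the 110 did, and of the other 94, 62 (66.0%) were overlapped in Taf5l-KO and 67 (71.3%) in Taf6l-KO. In the whole list, 54.8% of peaks reached H3K4me3, and the 12664 that did not were overlapped at 23.5% in Taf5l-KO and 26.6% in Taf6l-KO.

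The whole wild-type RNAP list was then divided into 4 strength groups of equal size by fold enrichment. In the lowest strength group (1.33 to 3.77), 8 of 23 peaks at the regions were overlapped in Taf5l-KO cells (34.8%, 16.4 to 57.3) and 11 in Taf6l-KO cells (47.8%, 26.8 to 69.4), against 22.9% and 29.4% of all peaks of that strength group. In the second strength group (3.77 to 4.34), the shares were 80.6% (64.0 to 91.8) and 83.3% (67.2 to 93.6) of 36 peaks, against 40.4% and 47.5% of all. In the strongest strength group, above 5.53, they were 15 of 18 (83.3%, 58.6 to 96.4) in each knockout, against 87.8% and 94.4% of all. Of the 12 wild-type RNAP peaks at high-background regions, 3 were overlapped in Taf5l-KO and 6 in Taf6l-KO, and without them the shares were 76.5% (66.9 to 84.5) and 78.6% (69.1 to 86.2).

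For RNAP-ser5, 51 wild-type peaks touched the regions, of which 23 (45.1%, 31.1 to 59.7) met a Taf5l-KO peak and 15 (29.4%, 17.5 to 43.8) a Taf6l-KO peak, against 26.3% and 16.0% of the whole list. Of the 15 in Taf6l-KO cells, 9 were at high-background regions, and at the remaining regions 6 of 39 (15.4%, 5.86 to 30.5) were overlapped. For RNAP-ser2, 35 of 70 (50.0%, 37.8 to 62.2) met a Taf5l-KO peak and 41 (58.6%, 46.2 to 70.2) a Taf6l-KO peak, against 36.4% and 38.3% of the whole list.

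In line 15 the stronger TAF6L-FB regions more often overlapped RNAP. By strength groups of TAF6L-FB fold enrichment from weakest to strongest, RNAP in Taf5l-KO cells overlapped 18.3%, 22.9%, 40.0% and 46.5% of the regions of line 15. In Taf6l-KO cells the shares were 21.1%, 18.6%, 44.3% and 40.8%, and in Wild-type cells 14.1%, 18.6%, 30% and 31.0%. In line 9 the shares in Taf5l-KO cells were 13.1%, 23.0%, 24.6% and 31.1%, those in Taf6l-KO cells 24.6%, 21.3%, 27.9% and 31.1%, and those in Wild-type cells 26.2%, 19.7%, 18.0% and 27.9%. The wild-type shares of line 9 therefore had no order by strength, and in line 9 the intervals of neighbouring strength groups overlapped in each genotype. In line 15 they overlapped too, except between the second group (10.3% to 29.7%) and the third (32.4% to 56.7%) in Taf6l-KO cells. The weakest strength group of line 9 held 40 high-background regions among 61, and that of line 15 held 15 among 71.

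**Figure D5:**
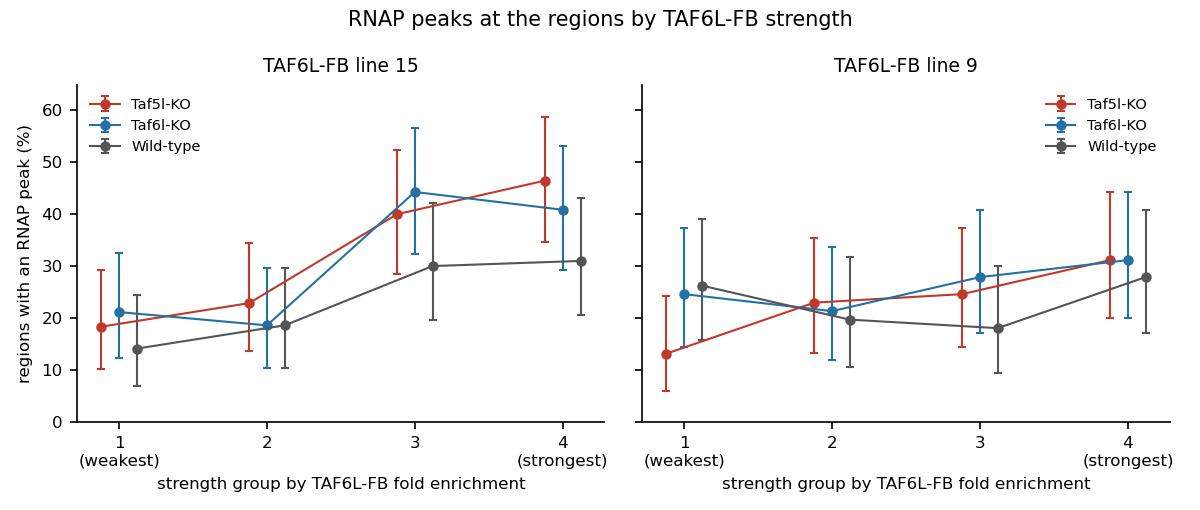
Percentage of regions with an RNAP peak (y axis) by strength group of TAF6L-FB fold enrichment (x axis, weakest to strongest) in line 15 (left) and line 9 (right), for Taf5l-KO (red), Taf6l-KO (blue) and Wild-type (grey) cells; bars are exact 95% intervals. In line 15 the Taf5l-KO share is 18.3% in the weakest strength group and 46.5% in the strongest, and in line 9 it is 13.1% and 31.1%.

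The share of regions with RNAP was highest nearest to H3K4me3, with intervals that overlapped between neighbouring distances in Wild-type cells. Wild-type RNAP overlapped 32.3% (23.1 to 42.6) of the 96 regions less than 1000 bp from a wild-type H3K4me3 peak, 20.7% (15.2 to 27.2) of the 188 at 1000 to 10000 bp and 19.7% (14.6 to 25.7) of the 213 farther away. In Taf5l-KO cells the same shares were 41.7%, 28.7% and 19.2%, and in Taf6l-KO cells 39.6%, 26.6% and 23.9%.

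H3K9ac and Myc peaks were rare at the regions. H3K9ac peaks overlapped 1 region in Taf5l-KO cells, 1 in Taf6l-KO cells and 7 in Wild-type cells (1.41%, 0.568 to 2.88), against 0.624%, 4.49% and 15.2% of all TAF6L regions. Among regions with H3K4me3 only, 24.7% (21.9 to 27.7) overlapped H3K9ac in Wild-type cells, and among those with Oct4 only 1 of 160 did. Myc, a transcription factor of growth genes, overlapped 0 regions in Taf5l-KO cells, which allows a share of up to 0.604% (3 counts of 497; the exact interval reaches 0.739%), 1 in Taf6l-KO cells and 3 in Wild-type cells (0.604%, 0.125 to 1.75). The background shares over all TAF6L regions were 0.312%, 0.187% and 3.68%. Of the 7 regions with wild-type H3K9ac, 6 were listed in line 15. Among the strongest by TAF6L-FB were chr1:133035853-133036167 (H3K9ac 4.90) and chr12:86962012-86962380 (4.28), both with RNAP in all 3 genotypes and H3K9ac in Wild-type cells only. The knockout lists are short, with 110 and 880 H3K9ac peaks and 32 and 22 Myc peaks in Taf5l-KO and Taf6l-KO on chromosomes 1 to 19. The Taf6l-KO H3K9ac list overlapped 58 of the 854 regions with H3K4me3 only (6.79%). The part of list length in the few overlaps was not tested.

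A few regions overlapped many lists besides TAF6L-FB. The region in most lists, 12, was chr1:194571617-194572060, found in line 15 only with a fold enrichment of 3.68 and 24637 bp from the nearest wild-type H3K4me3 peak. Its RNAP peaks had fold enrichments of 16.2 in Taf5l-KO, 12.7 in Taf6l-KO and 11.4 in Wild-type cells, and its H3K9ac peaks 6.39, 6.0 and 7.55. It was the only one of the 497 regions with H3K9ac in all 3 genotypes. At chr4:133456353-133456719, in 11 lists, RNAP stood at 15.9 in Taf5l-KO, 9.33 in Taf6l-KO and 13.8 in Wild-type cells. H3K9ac was listed there in Wild-type cells only (7.22), H3K4me3 in Taf5l-KO cells only (5.22), and the nearest wild-type H3K4me3 peak lay 34 bp away. At chr8:124374922-124375255, also in 11 lists, RNAP stood at 9.30, 6.92 and 6.89 in those genotypes, Taf6l-KO cells had an H3K4me3 peak (3.58), and Wild-type cells had peaks of Myc (15.8) and H3K9ac (4.52). The region chr17:71177993-71178391, 222 bp from a wild-type Oct4 peak, overlapped RNAP in all 3 genotypes and Oct4 in Taf5l-KO (7.57) and Taf6l-KO cells (6.71). The fifth, chr8:19989978-19990655, was 1 of the 5 high-background regions clustered on chromosome 8 and was listed for all 3 polymerase forms in all 3 genotypes.

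Of the other regions with Myc in Wild-type cells, chr9:20783645-20784079 (7.59) overlapped RNAP in all 3 genotypes. The remaining one, chr15:74916862-74917516, is the high-background place named above, where Myc was listed in Taf6l-KO (2.28) and Wild-type cells (1.85).

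TAF5L, a relative of TAF5 and a partner subunit of TAF6L in SAGA, was tagged in lines A5 and A6, whose lists held 136 and 7 peaks on chromosomes 1 to 19. TAF5L-FB peaks overlapped 19 of the 497 regions (3.82%, 2.32 to 5.91), all from line A5, against 4.87% of all TAF6L regions. The share was 2.58% (1.62 to 3.87) at regions with H3K4me3 only and 15.0% (9.85 to 21.5) at regions with Oct4 only. Among the 29 regions shared by both TAF6L lines, 4 overlapped TAF5L-FB (13.8%, 3.89 to 31.7). By TAF6L line, the shares were 13 of 282 in line 15 and 10 of 244 in line 9. The strongest was chr11:94024278-94024791, with a fold enrichment of 6.61 in TAF6L-FB line 9 and 4.42 in TAF5L-FB A5, where RNAP was listed in Taf5l-KO (4.11) and Taf6l-KO cells (4.63) but not in Wild-type cells. At chr10:85002623-85002941, TAF6L-FB had 5.85 in line 9 and TAF5L-FB 4.95, 171 bp from a wild-type Oct4 peak. At chr11:117833968-117834334 (5.59 in line 9), TAF5L-FB (5.97) was the only other list with a peak. In line 15, chr1:137114146-137114612 had 5.55 and TAF5L-FB 3.43, and chr5:129748153-129748527 had 5.21 and TAF5L-FB 4.06.

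The rule fixed the overlap with wild-type H3K4me3 and Oct4 at 0, so their knockout lists can only add overlaps. They are described without a comparison with Wild-type cells. H3K4me3 overlapped 40 regions in Taf5l-KO cells (8.05%) and 47 in Taf6l-KO cells (9.46%), 21 of them in both and 66 (13.3%, 10.4 to 16.6) in either. The 160 regions with Oct4 only, which also lack wild-type H3K4me3 by definition, had 4.38% in Taf5l-KO and 10.6% in Taf6l-KO. Their share in either knockout was 12.5% (7.81 to 18.6), close to that of the 497 regions. Among the 497, regions with a knockout H3K4me3 peak lay close to a wild-type one. Their median gap was 216 bp for Taf5l-KO and 1745 bp for Taf6l-KO, against 8062 and 7840.5 bp for the regions without. At the regions, Taf5l-KO cells had 39 H3K4me3 peaks and Taf6l-KO cells had 47, and 18 of each reached a wild-type peak beside the region. In the whole lists, 14.4% of H3K4me3 peaks in Taf5l-KO and 10.6% of those in Taf6l-KO overlapped no wild-type peak. The strongest region with H3K4me3 in both knockouts was chr14:46065023-46065444 (TAF6L-FB 5.68 in line 9), 132 bp from a wild-type H3K4me3 peak, with H3K4me3 at 4.03 in Taf5l-KO and 5.37 in Taf6l-KO. It was followed by chr3:87942164-87942497, at 5.60 and 5.08, and chr2:71557170-71557493, at 3.78 and 3.41.

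Oct4 overlapped 45 regions in Taf5l-KO cells (9.05%, 6.68 to 11.9) and 29 in Taf6l-KO cells (5.84%, 3.94 to 8.27), 16 of them in both and 58 (11.7%, 8.98 to 14.8) in either. The 854 regions with H3K4me3 only, which also lack wild-type Oct4 by definition, had 2.69% in Taf5l-KO and 1.87% in Taf6l-KO. Their share in either knockout was 3.75% (2.58 to 5.25). Of the 46 Oct4 peaks at the 497 regions in Taf5l-KO and the 30 in Taf6l-KO, 1 of each overlapped a wild-type Oct4 peak elsewhere. This count is not comparable with that of H3K4me3. The median peak width was 170 and 159 bp in these Oct4 lists, against 792 bp in the H3K4me3 list of each knockout. In the whole lists, 49.7% of Oct4 peaks in Taf5l-KO and 41.4% of those in Taf6l-KO overlapped no wild-type peak. Regions of line 9 more often had Oct4 in either knockout, 42 of 244 (17.2%, 12.7 to 22.5), than regions of line 15, 23 of 282 (8.16%, 5.24 to 12). The lines differed in the same direction at H3K4me3-only regions, with 8.33% (5.01 to 12.9) in line 9 and 3.35% (2.14 to 4.99) in line 15. By strength group of the 497 regions from weakest to strongest, the share was 8.20%, 21.3%, 13.1% and 26.2% (15.8 to 39.1) in line 9. In line 15 it was 7.04%, 5.71%, 5.71% and 14.1% (6.97 to 24.4), and in both lines the intervals of neighbouring groups overlapped. The strongest region with Oct4 in both knockouts was chr10:85002623-85002941, named above for TAF5L-FB, at 3.87 in Taf5l-KO and 7.85 in Taf6l-KO. At chr17:31945092-31945545, TAF6L-FB had 5.44 in line 15 and Oct4 had 5.05 and 8.53. At chr13:95476620-95476939, TAF6L-FB had 5.34 in line 9 and Oct4 had 5.80 and 7.85. At chr4:55488220-55488716, shared by both TAF6L lines and 1578 bp from a wild-type Oct4 peak, Oct4 had 8.45 and 7.85.

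Finally, 223 of the 497 regions (44.9%, 40.4 to 49.4) overlapped no peak in any of the 21 antibody lists, and 217 overlapped none in the TAF5L-FB lists either. Wild-type H3K4me3 and Oct4 are among the 21 lists, and the rule fixed their overlap at 0 here. By the same rule each other TAF6L region overlaps at least 1 of the lists, so no background share is given. The 223 comprised 112 regions of line 15 alone, 103 of line 9 alone and 8 shared by both lines, and 22 of them were of the high-background kind. Their share was 30.2% (21.3 to 40.4) among regions under 1000 bp from wild-type H3K4me3, 44.7% (37.4 to 52.1) at 1000 to 10000 bp and 51.6% (44.7 to 58.5) beyond. By strength group from weakest to strongest, the share was 46.5% (34.5 to 58.7), 61.4% (49.0 to 72.8), 28.6% (18.4 to 40.6) and 33.8% (23.0 to 46.0) in line 15. In line 9 it was 49.2%, 49.2%, 44.3% and 39.3%, with intervals that all overlapped. At the other end, 5 regions overlapped 10 or more lists, and 90 overlapped exactly 1.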

How the data were processed

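The 26 deposited files are peak lists, 1 per precipitated library, with nothing pooled. Per the submitters' processing notes, the tools were Bowtie2 2.3.2 and deepTools 2.5.3 and the build was mm9. Per the file headers, MACS2 2.1.1.20160309 called peaks against an input at a q cutoff of 0.05, with at most 1 tag per position and the larger library scaled to the smaller. Calling was broad (second cutoff 0.1) for H3K9ac, H3K4me3 and the polymerase forms, per the file headers. TAF lists used a set 300 bp fragment, other lists a modelled one, per the file headers. The deposited lists give the pileup signal, the fold enrichment (a ratio to local background) and −log10 q per peak. These are the authors' values and were used only to describe, rank or filter peaks within a list.

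Peaks were joined, intersected (1 bp) and measured with Python 3.11.15, pandas 2.3.3, numpy 2.4.6 and SciPy 1.17.1. The interval code was tested on simulated lists. Groups come from the sample titles. A polymerase peak counted as overlapped, or kept, when a knockout peak of the same target shared 1 bp. High background means pileup divided by fold enrichment of at least 10 in either line.

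Regions named are the strongest by fold enrichment in both lines and in each line alone, those in most lists, the strongest per overlapped target, and those nearest to either side of the rule. Where values tied, the first position was named. The members and lists were chosen with earlier results of these data known. Alternatives covered peak threshold, overlap, window, joining, BirA filtering, strength, each line left out, and high background. The Taf5l and Taf6l loci themselves were not analysed here.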

Additional observations from a re-analysis of the deposited data

Results flagged for a closer look

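Chromosome X lay outside the rule. TAF6L-FB line 9 listed 4 peaks there and line 15 listed 0, and 3 of the 4 overlapped neither wild-type H3K4me3 nor wild-type Oct4, while the BirA list had 0 peaks on that chromosome. The fold enrichments of the 4 peaks ran from 1.43 to 4.07. This was set apart because it is signal on a chromosome that the report does not otherwise use. The BirA list is short and was called with another fragment size, and line 15 also had 0 peaks there, so the counts do not show a level above the control.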

How the results depend on the processing

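The number of regions, 497, was 195 with TAF6L-FB peaks at −log10 q of at least 5, 29 for regions in both lines, 249 for the stronger part by fold enrichment, and 244 to 283 with either line left out. Regions with a wild-type polymerase peak (28.2%) were 33.3% at that TAF6L-FB threshold, 6.04% with the threshold on the other lists, 20.7% with 50% of the region covered, 36.6% with a peak within 1000 bp counted and 37.9% in both lines. H3K9ac (1.41%) was 0.402% with the threshold on the other lists, 3.42% within 1000 bp, 0% in both lines, and 0.410% to 2.12% with a line left out. Myc (0.604%) was 3.45% in both lines. H3K4me3 in either knockout (13.3%) was 3.22% with the threshold on the other lists, 7.24% at 50% coverage, 24.7% within 1000 bp, 8.55% with regions within 1000 bp of a mark left out, and 10.2% to 15.9% with a line left out. Oct4 in either knockout (11.7%) was 15.9% at the TAF6L-FB threshold, 8.05% with the threshold on the other lists, 4.63% at 50% coverage, 24.1% in both lines, and 8.48% to 17.2% with a line left out. TAF5L-FB (3.82%) was 13.8% in both lines. Wild-type RNAP peaks overlapped in Taf5l-KO (70.9%) were 60.8% with regions within 1000 bp of a mark left out and 80% in both lines, and those in Taf6l-KO (75.5%) were 65% with the threshold on the other lists and 67.3% to 83.3% with a line left out. Shares over all TAF6L regions were not recomputed at these settings, and the cause of these shifts was not tested. Of 108 recomputed values, 77 stayed within the interval of the first value, or for the number of regions within 1.5 times it. Some of these could not move, since settings of the other lists do not change which regions are members. No paired analysis was possible because the genotypes have 1 library each and the tagged lines have no matching control lines.

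The depth of the lists limits what is missing from them: a missing peak says only that the caller's threshold was not passed, and the shares in Wild-type cells rest on 1 library per antibody. Pileup over fold enrichment only approximates the background used by the caller. Whether the high-background regions lie in repeated sequence was not tested, since no mm9 sequence was used.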
